A study of Mus musculus with 2 samples.

Results

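The Ly6 surface antigen cluster was examined in the open chromatin of mouse GMP, the granulocyte monocyte progenitors from which neutrophils and monocytes form in the bone marrow. Its 9 genes here were Ly6d, Ly6k, Ly6e, Ly6i, Ly6a, Ly6c1, Ly6c2, Ly6g and Ly6h, in that order along chromosome 15, chosen by name from the 21755 protein-coding genes annotated on the autosomes and X. The window reached from 50 kb before the first gene to 50 kb after the last (chr15:74712056-75617255 in mm10, 905.2 kb). It held 38 of the 75148 accessible regions of the list made from both replicates together.

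The assay was ATAC-seq, in which the Tn5 transposase cuts accessible DNA and the fragments are sequenced. The series holds 1 group: primary GMP from adult male C57BL/6J mice of 5 to 6 weeks, with no treatment or genotype named, as 2 replicates of 50000 cells each. The replicates are separate biosamples with the same donor label, sequencing instruments are named for replicate 1 only, and the sources used here do not give the sorting scheme. With 1 group and peak lists in place of counts, no test between groups exists, depth is unknown, and every value below is a description. A region missing from a list is one that did not pass the threshold of that list, and in a pool of cells a region open in few cells cannot be told apart from one weakly open in many.

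Ly6 proteins are small cell surface proteins of the Ly6/uPAR family, held by cysteine bridges and mostly anchored in the membrane by a glycolipid. In blood formation several of them are used as sorting antigens: Ly6a (Sca-1) marks stem cells and GMP are conventionally sorted as cells without it, the products of Ly6c1 and Ly6c2 carry the Ly6C antigen of monocytes, and Ly6g marks neutrophils. Ly6a, Ly6c and Ly6e are also known as genes induced by interferon. The genes arose by local duplication, so the cluster holds close copies of genes and many pseudogenes.

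Among the 9 genes, Ly6c2 and Ly6e had open promoters in GMP and the other 7 did not. The 300 bases before the annotated 5′ end of each of these 2 genes are shown, because these are the only member promoters that passed. They are printed 5′ to 3′ on the gene's strand from GRCm38.p6, the assembly of mm10. Capitals mark matches on either strand to any of 7 words: GAGGAAGT (PU.1), CCGGAAGT (other ETS factors), TTGCNNAA (C/EBP), TGTGGT (RUNX), GAAANNGAA (IRF), TTCNNNGAA (STAT) and TGANTCA (AP-1). The Ly6c2 stretch lies on the minus strand at chr15:75111971-75112270, and the Ly6e stretch on the plus strand at chr15:74954751-74955050.

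Ly6c2 upstream: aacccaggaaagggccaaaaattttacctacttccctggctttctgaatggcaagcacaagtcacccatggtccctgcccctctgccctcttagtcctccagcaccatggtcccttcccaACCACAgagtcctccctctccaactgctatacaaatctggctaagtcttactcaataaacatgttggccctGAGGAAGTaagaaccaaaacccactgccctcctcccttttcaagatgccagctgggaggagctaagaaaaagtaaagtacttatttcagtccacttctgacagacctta

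Ly6e upstream: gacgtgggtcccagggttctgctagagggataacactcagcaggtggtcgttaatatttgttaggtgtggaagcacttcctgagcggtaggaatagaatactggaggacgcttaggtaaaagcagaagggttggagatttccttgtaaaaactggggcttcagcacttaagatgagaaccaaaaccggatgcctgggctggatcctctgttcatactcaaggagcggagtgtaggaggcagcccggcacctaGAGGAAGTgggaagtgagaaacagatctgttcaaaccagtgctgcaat

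Both stretches held the PU.1 word, which began 109 bases before the 5′ end of Ly6c2 and 48 bases before that of Ly6e. The centre of the word lay 28 bp from the main summit of the Ly6c2 region. At Ly6e the main summit lay elsewhere, 0.524 kb downstream of the 5′ end, and the 300 bases centred on it held none of the 7 words. PU.1, encoded by Spi1, is a central transcription factor of myeloid cells. In Ly6c2 the capitals ACCACA, 180 bases before the 5′ end, are the RUNX word read on the other strand. Of 32851 RefSeq promoters of the same 300-base length, 3.20% held the PU.1 word and 16.8% the RUNX word. The shares for the other words were 3.89% (other ETS factors), 10.8% (C/EBP), 8.56% (IRF), 8.30% (STAT) and 7.81% (AP-1), and the PU.1 and ETS words share their last letters GGAAGT. The unopened promoters held such words too: Ly6g had the PU.1 word 10 bases and a C/EBP word 211 bases before its 5′ end, Ly6d, Ly6k and Ly6h each had a RUNX word, and Ly6k also had a STAT word. In the same 300 bases Ly6i, Ly6a and Ly6c1 held none of the 7 words. The RefSeq windows differ, reaching from 250 bases before a start to 50 after it and resting on RefSeq's own starts. In them all 3 members of that table (Ly6c1, Ly6c2 and Ly6g) held the PU.1 word. A match is a letter pattern and no measurement of binding.

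An open promoter means here a summit within 1 kb of an annotated transcription start site. By this rule 2 of 9 members were open in the series-level list, against 62.7% of all protein-coding genes (13650 of 21755). Both were open in the own list of each replicate, against 57.5% of all genes that were open in both. The count moved with the list: 5 of 9 members had a summit in the looser replicated list, in which 70.4% of all genes were open, and 1 of 9 (Ly6c2) among regions at or above the median fold, where 46.3% of genes were open.

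Ly6c2, the Ly6C gene known from inflammatory monocytes and their progenitors, had the strongest region at any member promoter. Fold enrichment, the authors' own value for each row (its background is unnamed in the sources used here), was 14.2 in replicate 1, 10.9 in replicate 2 and 13.04 in the series-level list. Both replicates were therefore above the median of their own lists, 9.08 in replicate 1 and 7.74 in replicate 2. The series-level value was above that of 88.5% of all regions. The region, at chr15:75111898-75112609, had its main summit 0.134 kb upstream of the 5′ end and a weaker summit, of fold 6.13, at 0.459 kb upstream. Farther upstream lay 3 weak regions at 4.75, 5.72 and 8.30 kb, with series-level folds of 4.93, 5.03 and 6.35. Of these, the nearest and the farthest were in the list of replicate 2 and none in that of replicate 1.

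Ly6e, the most broadly expressed gene of the cluster and a known restriction factor for coronaviruses, had a wide and weaker region over its promoter. The fold was 7.71 in replicate 1, 5.33 in replicate 2 and 6.59 in the series-level list. Each of these was below the median of its list, which was 8.09 in the series-level list. The region (chr15:74954829-74955980) was 1152 bp wide and had 4 summits, from 0.073 kb upstream to 0.817 kb downstream of the 5′ end, of which the strongest lay 0.524 kb downstream. Ly6e has 15 annotated start sites, and all but the last of them lie inside this region. A second region, of fold 4.09, lay 2.05 kb downstream of the 5′ end and 0.542 kb from the last start site, in neither replicate's list.

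Ly6c1, the close paralog of Ly6c2, had no summit within 1 kb of a start site in the series-level list or in either replicate's own list. Its only promoter row was in the looser pseudoreplicated list, with a fold of 3.33. The nearest region lay 13.4 kb upstream with a series-level fold of 9.46, and it was in the list of replicate 1 (fold 10.3) but not of replicate 2. So the 2 Ly6C genes differed in whether a promoter region passed. That difference lies in partly repeated sequence. Of the 50-base words within 1 kb of their 5′ ends, 51.9% in Ly6c1 and 58.0% in Ly6c2 occurred once in the genome. In the 300 bases upstream of Ly6c2 the share was 43.4%. In the stretch at Ly6c1 that aligns with them it was lower, 17.9%.

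Ly6a, the Sca-1 gene, likewise had no promoter region that passed, although a candidate row of fold 3.38 stood in the ranked list between the replicates with an IDR of 0.372. IDR, the irreproducible discovery rate, is lower the more reproducible the rank of a row is. The lowest values at the Ly6c2 and Ly6e promoters were 2.3e-04 and 0.00132. A strong region near Ly6a lay beyond its 3′ end, at chr15:74988308-74989524. Its fold was 9.92 in replicate 1, 9.68 in replicate 2 and 10.5 in the series-level list, close between the replicates. The highest summit was not the same, however: it lay 9.33 kb from the 5′ end of Ly6a in replicate 1 and 8.84 kb in replicate 2. In the series-level list its 3 summits lay 8.84, 9.33 and 9.59 kb downstream of the 5′ end of Ly6a, with folds of 10.5, 9.25 and 5.04. Downstream hypersensitive sites are part of the constructs long used to drive transgenes in the Ly6a pattern. The same region is the nearest to Ly6i, whose 5′ end is 5.76 kb from the main summit, so it cannot be assigned to either gene from its position.

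The 300 bases centred on the main summit of the series-level list, which was also the highest in replicate 2 but not in replicate 1, are shown (plus strand, chr15:74989040-74989339, GRCm38.p6). The region was chosen as one of the 10 with the highest series-level fold in the window and the nearest to Ly6a. Capitals mark the same 7 words.

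Ly6a downstream summit: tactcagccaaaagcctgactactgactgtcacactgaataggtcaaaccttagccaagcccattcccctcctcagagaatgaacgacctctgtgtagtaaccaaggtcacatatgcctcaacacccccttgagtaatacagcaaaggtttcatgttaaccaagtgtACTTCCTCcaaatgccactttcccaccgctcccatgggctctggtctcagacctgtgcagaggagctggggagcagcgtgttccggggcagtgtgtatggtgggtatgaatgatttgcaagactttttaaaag

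ACTTCCTC is the PU.1 word read on the other strand, and it was the only match of the 7 words in this window. Over all 75148 regions, 10.9% had the PU.1 word within 150 bp of the main summit, and in the window 4 of 38 did (10.5%). With every summit of the window counted in place of the main one per region, 8 of 54 did. No share over every summit of the whole list is given here, and summits of the same region can share a match. The 4 with the word at the main summit were the Ly6c2 promoter, this region, a region 17.3 kb upstream of Ly6g, and the region at the pseudogene 9030619P08Rik. They are not 4 independent matches. Ly6c2 and 9030619P08Rik hold copies of the same promoter, described below. The region upstream of Ly6g has nearly the same sequence around the word as the region near Ly6a. In it 76 of 446 words of 50 bases were repeated in the genome, 54 of them with a copy at Gm37042. The main summit near Ly6a lies in an exon of Gm37042.

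Ly6g, the neutrophil antigen, had no promoter region that passed and several regions upstream. A promoter row of fold 4.05 stood in the looser replicated list and, with an IDR of 0.372, in the ranked list between the replicates. Neither replicate's own list had one. Regions lay 11.3, 13.2, 17.3 and 19.95 kb upstream, with series-level folds of 5.84, 7.07, 8.203 and 10.1. The region at 17.3 kb had nearly the same fold in both replicates, 7.99 and 7.83, and the one at 19.95 kb had 10.8 in replicate 1 and 8.58 in replicate 2. The region at 19.95 kb is the one at the 5′ end of the pseudogene I830127L07Rik, described below. Of its 50-base words 33.2% were unique, and its fold cannot be fully told apart from that of the Ly6c2 region. The region at 13.2 kb was in the list of replicate 1 only (fold 7.40), and the nearest was in neither. In the downstream direction no region of any thresholded list lay between Ly6g and the pseudogene 9030619P08Rik.

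Ly6i, a close relative of the Ly6c genes, had 2 candidate regions at its promoter in the looser replicated list, the higher with a fold of 4.52. The lowest IDR at its promoter in the ranked list between the replicates was 0.219. Neither region passed, and neither replicate's own thresholded list held one.

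The members at the edges of the cluster had no promoter row in any list. Ly6d, a marker of lymphoid progenitors committed to the B cell path, had its nearest region 2.73 kb downstream of its start, past its 3′ end, with a fold of 10.2 in replicate 1, 6.36 in replicate 2 and 8.81 in the series-level list. Ly6k, known from the testis and needed for sperm migration, was the member farthest from any region of the series-level list: the nearest was the same one, 38.6 kb away. In the list of replicate 1 a region of fold 7.94 lay closer, at 21.1 kb. Ly6h, a brain gene that acts on nicotinic acetylcholine receptors, had its nearest region 17.6 kb downstream of its closest start site, also past its 3′ end, with a fold of 12.2 in replicate 1, 8.65 in replicate 2 and 11.7 in the series-level list. Sequence around the start sites of Ly6d, Ly6k, Ly6e and Ly6h consisted only of unique 50-base words.

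**Figure D1:**
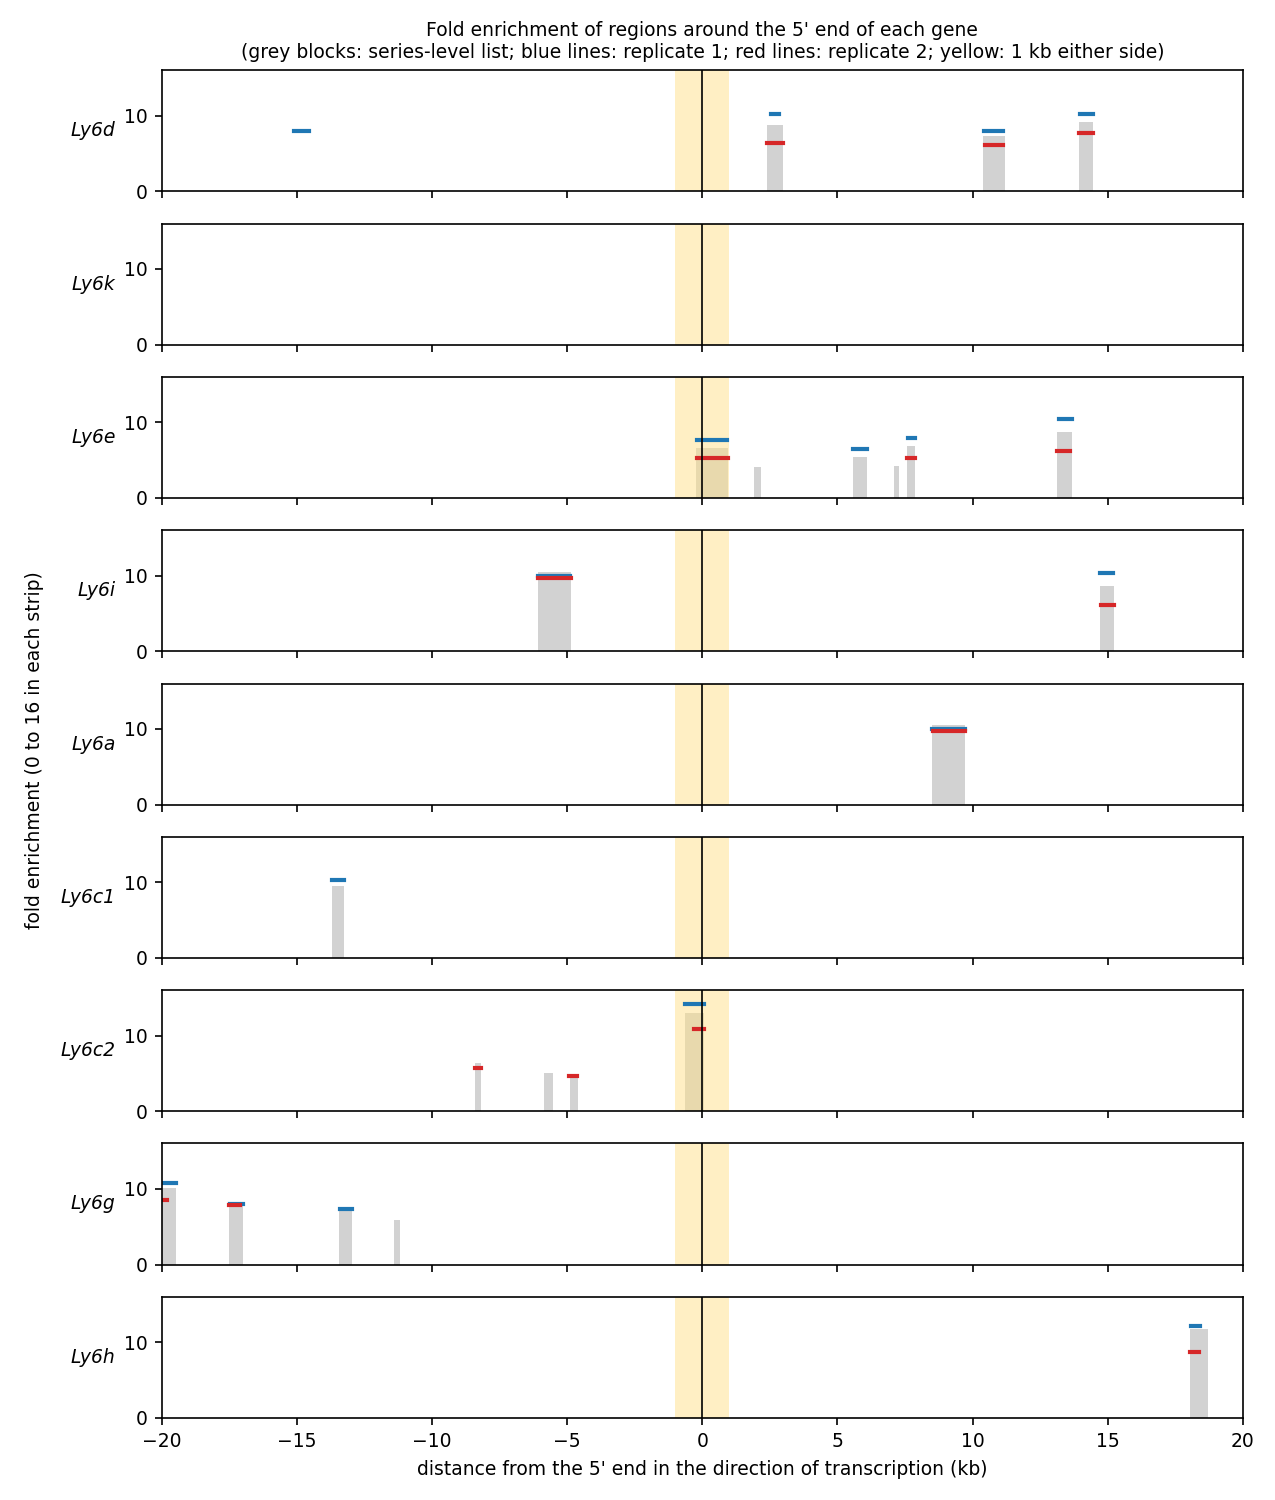
Regions within 20 kb of the 5′ end of each of the 9 genes, with distance in the direction of transcription (kb) on the x axis and fold enrichment on the y axis. Grey blocks are regions of the series-level list, blue and red lines those of replicates 1 and 2. Only Ly6e and Ly6c2 have blocks within 1 kb (yellow), at 6.59 and 13.04, and both replicates are present at each.

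Counted within 50 kb of a start site, the members had a median of 8 regions, against 6 over all protein-coding genes. Ly6e had the most, 15 in the series-level list, of which 9 were in both replicates. Ly6c2 had 10 (4 in both), Ly6i and Ly6a 9 each (5 in both), Ly6g 8 (3 in both), Ly6d 6 (6 in both), Ly6c1 4 (2 in both), and Ly6k and Ly6h 2 each (2 in both). Neighbouring members share regions in these counts, so they are not independent. Ly6c1 stands between Ly6a and Ly6c2 with fewer regions than either.

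Across the whole window the density was 42.0 regions per Mb, against 27.6 over all chromosomes and 28.2 on chromosome 15. Regions covered 2.16% of the window and 1.51% of all chromosomes. The window regions were on the weak side: their median fold was 7.005, with a range from 4.09 to 14.9, against 8.09 over all regions, and their median width was 461 bp against 473 bp. Of the 38, 8 had their main summit at a protein-coding promoter, 5 in an exon, 2 in an intron and 23 between genes. The dense and the empty stretches lay side by side.

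The densest interval was that from Ly6e to Ly6i, with 6 regions in 24.5 kb (245 per Mb). Besides the Ly6e promoter and the region at its last start site, they were 4 regions beyond the 3′ end of Ly6e, at 5.95, 7.19, 7.73 and 13.4 kb from its 5′ end with folds of 5.44, 4.20, 6.86 and 8.65. A further 8 regions lay 23.2 to 45.4 kb upstream of Ly6e, with folds from 4.65 to 8.80. The interval from Ly6c2 to Ly6g held 8 regions (170 per Mb) and the 50 kb before Ly6d 6 (120 per Mb). Between Ly6d and Ly6k there was none in the series-level list and 1 in that of replicate 1, at the promoter of D730001G18Rik (fold 7.94).

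The interval from Ly6g to Ly6h, the longest between neighbouring members, had 2 regions in 396 kb (5.05 per Mb). Most of it lies in the longest stretch of the window without a region, chr15:75144045-75431666, which begins upstream of Ly6g, spans 287.6 kb and holds Ly6g, BC025446, Ly6f and 9 pseudogenes. No thresholded list, of the series or of a replicate, had a region there, and the looser replicated list had 5 with folds up to 6.07. Of its 50-base words 83.5% were unique, against 82.6% in the whole window, and of its 100-base words 91.1%, against 91.9%. Stretches this long are not rare: 1224 gaps between regions were at least as long over all chromosomes, 58 of them on chromosome 15.

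**Figure D2:**
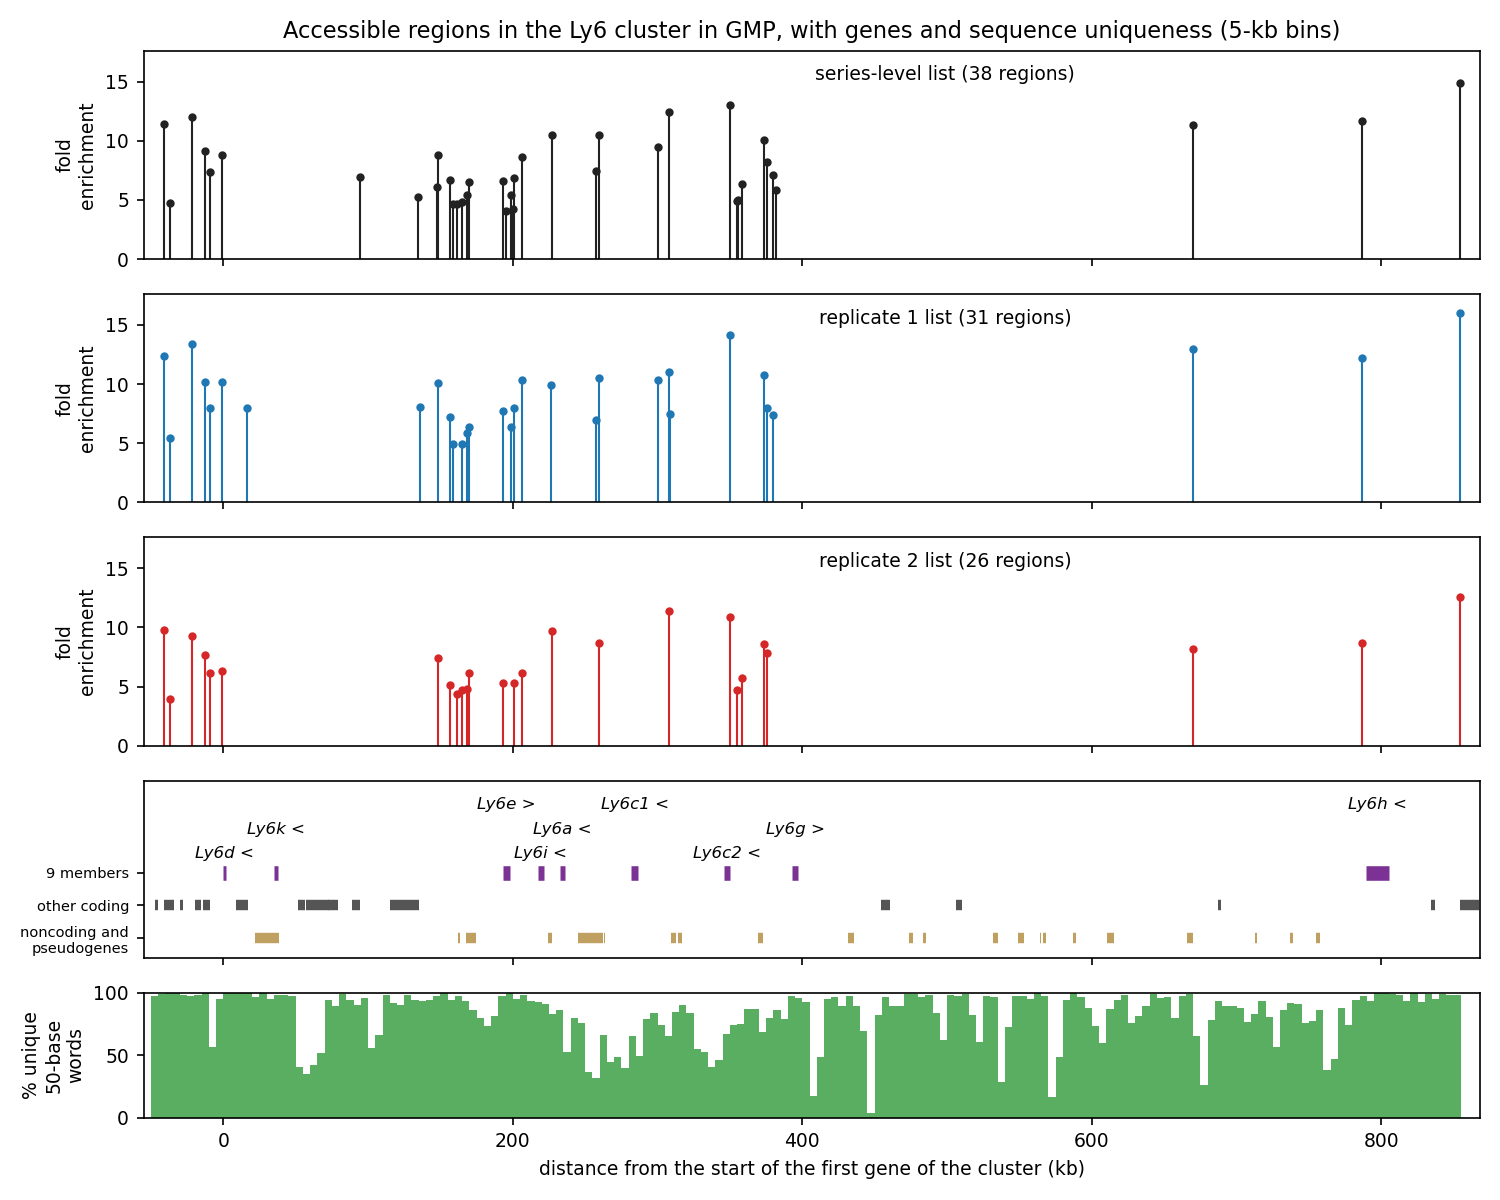
The window on a common x axis of distance from the start of the first gene (kb): fold enrichment of each region in the series-level list and the own lists of replicates 1 and 2, then the genes (arrowheads give the strand), then the percentage of 50-base words found once in the genome per 5-kb bin. Regions crowd around Ly6e and from Ly6c2 to Ly6g, and the stretch of 287.6 kb downstream has none in any of the 3 lists.

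Between replicates, 23 of the 38 regions (60.5%) were in both own lists, against 66.1% of all regions. A further 5 were in the list of replicate 1 only, 3 in that of replicate 2 only and 7 in neither. In the looser list of each replicate, 36 of the 38 were present in both. Regions in both lists had a median series-level fold of 8.81, against 5.44 for the others, and were wider, with a median of 613 bp against 313 bp. Own lists of the replicates held 31 regions in the window for replicate 1 and 26 for replicate 2, from 65423 and 53686 in all. The fold was higher in replicate 1 for 22 of the 23 shared regions. The exception was a region 21.4 kb upstream of Ly6c1, with 11.02 in replicate 1 and 11.4 in replicate 2. The median fold over all regions was also higher in replicate 1, 9.08 against 7.74, and the part this had in the order within the window was not tested.

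**Figure D3:**
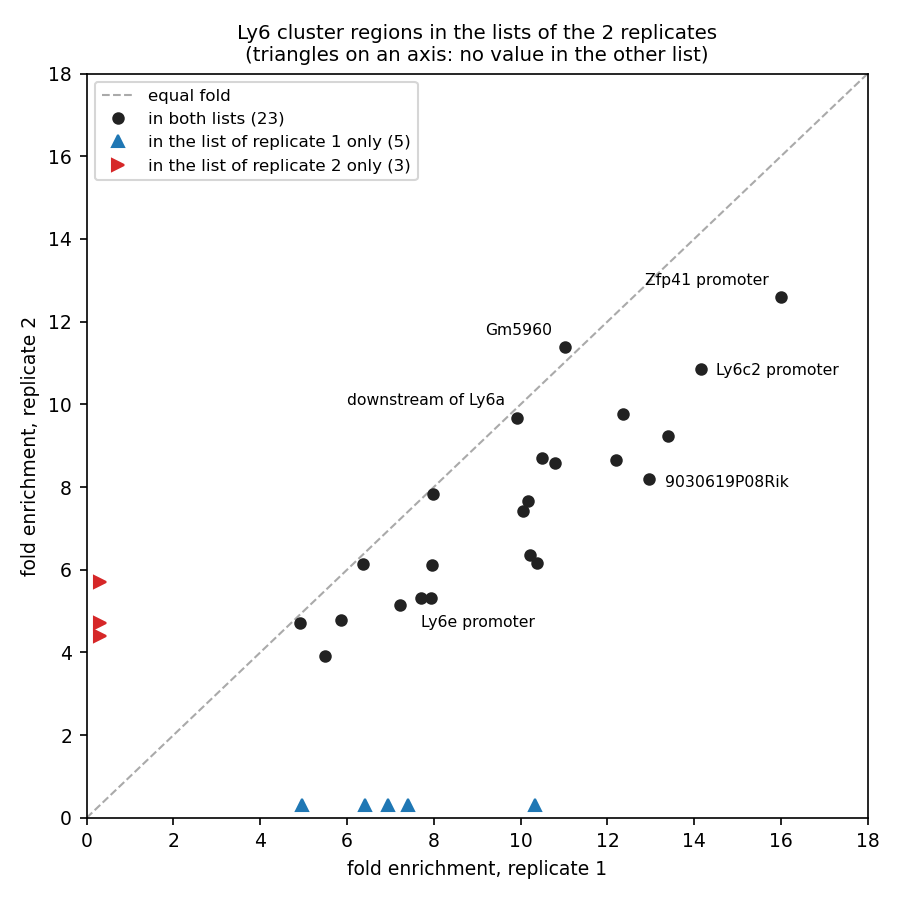
Fold enrichment of the window regions in the own lists of replicate 1 (x axis) and replicate 2 (y axis). Circles are the 23 regions in both, triangles on an axis the 5 and 3 regions in 1 list only, and the dashed line marks equal fold; 22 of 23 circles lie below it.

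The other strong regions of the window lay partly at genes outside the family. Zfp41, a zinc finger gene at the downstream edge, had the highest fold of all, 16 in replicate 1, 12.6 in replicate 2 and 14.9 in the series-level list. Them6 had 12.4 and 9.77 in the replicates, and a region at chr15:74739829-74740648, between Lypd2 and Slurp2, had 13.4 and 9.24. A region inside the noncoding gene Gm28068, 23.5 kb upstream of Ly6a, had 10.5 and 8.70. Of its 50-base words 56.7% were unique, and of its 100-base words 100%. Of the 17 other protein-coding genes in the window 5 had an open promoter: Them6, Zfp41, Lynx1 (7.96 and 6.12 in the replicates), and, in the series-level list only, Cyp11b2 (6.94) and 2010109I03Rik (5.24). For 2010109I03Rik, the list of replicate 1 had a separate region of fold 8.02 at the same promoter.

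Several of the strongest regions near the members lay at pseudogenes. Of the 20 pseudogenes in the window, 5 had a summit within 1 kb of their 5′ end, against 5.58% of the 12713 pseudogenes on the autosomes and X. Most pseudogenes of the window are unprocessed, and the wider set holds all types of pseudogene. To follow this, the 300 bases upstream of Ly6c2 were aligned to the sequence within 1 kb of the 5′ end of each other gene of the window. This comparison was chosen after the positions had been seen. With Ly6c2 itself, 14 copies were found, 7 at protein-coding genes and 7 at pseudogenes. All 13 others had alignment scores of at least 262, and the next best match had 94. That match, near the pseudogene Gm28114, was 92.7% identical over 55 bases and ended at the edge of the searched sequence. Copies that reach beyond 1 kb could thus be missed, and the count of 14 may be too low. A summit lay inside 4 of the 14 copies, at Ly6c2 and at 3 pseudogenes.

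Stretches of 50 bases from 13 copies are shown because they place open and closed copies of the same promoter side by side; that of Ly6a overlaps an untranslated region and is left out. Each is read 5′ to 3′ on the strand of its gene, from GRCm38.p6, and capitals mark the 8 bases that align with the PU.1 word of Ly6c2, whether or not they match it. The 4 copies with a summit come first, at chr15:75112070-75112119, chr15:75135222-75135271, chr15:75070674-75070723 and chr15:75431829-75431878.

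Ly6c2: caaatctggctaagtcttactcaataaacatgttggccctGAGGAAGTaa

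I830127L07Rik: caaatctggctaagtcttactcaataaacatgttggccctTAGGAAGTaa

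Gm5960: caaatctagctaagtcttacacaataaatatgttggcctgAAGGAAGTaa

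9030619P08Rik: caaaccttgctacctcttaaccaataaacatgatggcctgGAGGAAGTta

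These are the copies in which no summit lay, from the highest identity to Ly6c2 to the lowest.

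Ly6i: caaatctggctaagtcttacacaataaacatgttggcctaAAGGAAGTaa

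Gm3142: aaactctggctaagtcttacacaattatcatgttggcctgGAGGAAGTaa

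Gm3454: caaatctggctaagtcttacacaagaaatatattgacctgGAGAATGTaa

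Ly6g: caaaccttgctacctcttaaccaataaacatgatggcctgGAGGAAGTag

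Gm28116: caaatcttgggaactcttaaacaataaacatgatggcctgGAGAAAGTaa

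BC025446: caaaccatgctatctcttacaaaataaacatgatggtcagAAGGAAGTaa

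Ly6f: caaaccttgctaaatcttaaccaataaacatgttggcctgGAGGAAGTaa

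Gm10238: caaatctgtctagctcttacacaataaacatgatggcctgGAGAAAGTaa

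Ly6c1: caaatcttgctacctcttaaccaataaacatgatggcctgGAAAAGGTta

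The pseudogene I830127L07Rik, between Ly6c2 and Ly6g, was 98.6% identical to Ly6c2 over 295 aligned bases. The summit in its copy had a fold of 10.8 in replicate 1, 8.58 in replicate 2 and 10.1 in the series-level list. At Ly6c2 the same values were 14.2, 10.9 and 13.04, higher in each list.

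Gm5960, the pseudogene between Ly6c1 and Ly6c2, was 88.3% identical over 214 bases. The summit in its copy lay 3 bp from the centre of the capitals and had a fold of 6.74 in the series-level list, 7.51 in replicate 1, and none in replicate 2. A stronger summit of the same region, of fold 12.5, lay outside the copy. 9030619P08Rik, far downstream between Ly6g and Ly6h, was 81.8% identical over 274 bases, and its summit had a fold of 12.95 in replicate 1, 8.19 in replicate 2 and 11.3 in the series-level list.

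Identity did not order the copies by whether they were open. Ly6i, at 91.9% over 258 bases, had no summit, while 9030619P08Rik did at 81.8%. Ly6g was 79.7% identical over 290 bases, and Ly6c1 and Ly6a 76.5% and 76.2%. Presence of the whole PU.1 word did not order them either. All 8 of its bases were present in 5 copies, of which 2 were open (Ly6c2 and 9030619P08Rik) and 3 were not (Gm3142, Ly6g and Ly6f). I830127L07Rik and Gm5960 were open with 7 of the 8 bases, as many as the closed copy at Ly6i, and Ly6c1 and Ly6a kept 5. Both of these open copies have limits. The fold at I830127L07Rik cannot be fully told apart from that at Ly6c2, as described below. The summit in the Gm5960 copy was in the list of replicate 1 but not of replicate 2. The last letters GGAAGT were present in all 4 open copies. Closed copies at Ly6i, Gm3142, Ly6g, BC025446 and Ly6f kept them too, and those at Gm3454, Gm28116, Gm10238, Ly6c1 and Ly6a did not. What part these letters had was not tested. Of the 10 closed copies, 3 overlapped a region of the looser replicated list: Ly6i with a fold of 4.52, Ly6g with 4.05 and Ly6a with 3.38.

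**Figure D4:**
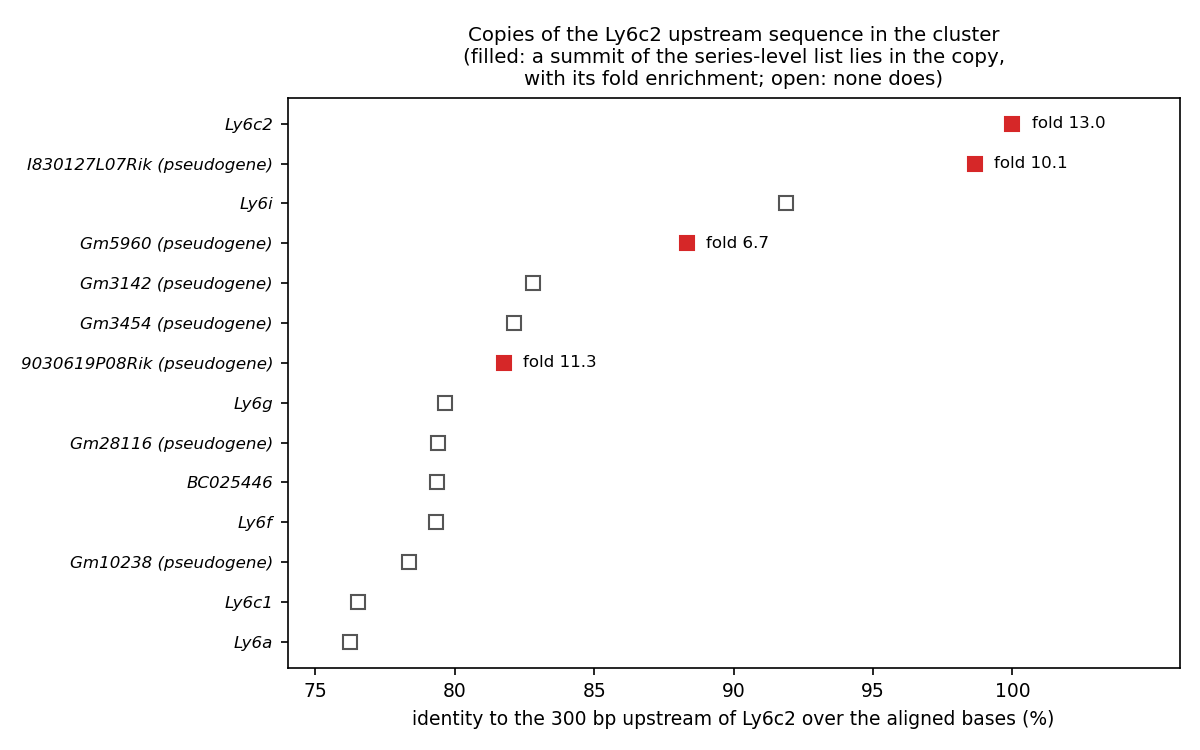
Identity of each of the 14 copies to the 300 bp upstream of Ly6c2 over the aligned bases (x axis, %), 1 row per gene or pseudogene. Filled squares are copies that hold a summit of the series-level list, with its fold enrichment beside them, and open squares hold none; Ly6i at 91.9% is unfilled while 9030619P08Rik at 81.8% is filled.

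How far reads from the copies can be told apart differs between them. In the Ly6c2 region 448 of 663 words of 50 bases occurred more than once in the genome, all with a copy inside the cluster and 437 of them at I830127L07Rik. In the I830127L07Rik region 434 of 650 words were repeated, all of them at Ly6c2. Within 150 bp of the main summit, 50% of 50-base words and 62.4% of 100-base words were unique at Ly6c2, and 38.1% and 47.5% at I830127L07Rik. The sources used here name neither the read length nor the treatment of reads with several placements, so from these lists the folds of the Ly6c2 and I830127L07Rik regions cannot be fully told apart. The copy at 9030619P08Rik was 97.8% unique at 50 bases and that at Gm5960 100%, as were those of Ly6i (99.0%) and Ly6g (98.1%) nearly throughout. The copies at Ly6c1 and Ly6a were unique for only 17.9% and 19.6%. Upstream of their 5′ ends Ly6a and Ly6c1 were 97.9% identical over 193 aligned bases, and what part this had in the absence of regions there was not tested.

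Over the window as a whole, 26 of the 38 regions consisted only of unique 50-base words and 30 were at least 90% unique. Intervals with the lowest uniqueness were Ly6a to Ly6c1 (55.1%) and Ly6c1 to Ly6c2 (67.4%), which held 2 regions each, or 40.7 and 31.2 per Mb.

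Other members of the Ly6/uPAR family gave a wider comparison. Among 21 family genes outside the window, 10 had an open promoter and 6 were open in both replicates. The highest were Pinlyp, named for a phospholipase inhibitor, with 16.99 and 13.8 in the replicates, and Cd59b, a complement inhibitor, with 14.8 and 11.8. Cd59a had 12.6 and 9.80, Pate2 13.3 and 12.6, Lypd6 11.9 and 9.19, and Plaur, the urokinase receptor, 5.23 and 4.33. The other 4 were open in the series-level list: Lypd6b in neither replicate, Ly6g5b in replicate 1, and Ly6g6d and Ly6g6e, through 1 shared region, in replicate 2. Of 10 family genes in or near the window Lynx1 alone was open, and Slurp1, Slurp2, Lypd2, Ly6f, Ly6l, Psca, Gpihbp1, Gml and Gml2 were not. These shares stand beside the 62.7% of all genes.

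Of interferon pathway genes, promoters were open in both replicates for the receptor gene Ifngr2 (9.21 and 6.65), the regulator Irf8 (10.7 and 7.88) and Stat2, a signal transducer of the interferon receptors (15.9 and 12.8). The STAT word was found within 150 bp of the main summit in 6 of 38 window regions (15.8%), against 8.21% of all regions, and the IRF word in 5 (13.2%), against 11.2%. These counts are small. Within 50 bp of the summit they were 2 each, and no share over all regions is given here for that distance. Among antigens used beside Sca-1 and Gr-1 to sort progenitors, 9 of 10 promoters were open in both replicates, against 57.5% of all genes, Kit with 9.25 and 8.67, Cd34 with 7.95 and 8.25, and Fcgr3 with 5.25 and 5.82. Slamf1, a stem cell antigen, was not.

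The label of the cells was read against markers at their promoters. As the background, 62.7% of all genes were open in the series-level list and 57.5% in both replicates. Of 13 GMP markers, 12 were open in both replicates, among them Mpo (5.86 and 4.68), Elane (7.002 and 6.10) and Cebpa (8.49 and 8.10), and Prtn3 was not open. None of 5 T and NK cell markers was open, and of the B cell markers Pax5 and Ebf1 were open and Cd79a was not. In the series-level list stem cell markers were open for 3 of 6 (Procr, Hlf and Mecom, the last in neither replicate). Erythroid markers were open for 4 of 6 there and for 3 of 6 in both replicates. Hbb-bs was the highest of them at 16.1 and 14.3, and Klf1 and Hba-a1 had no region. Mature neutrophil markers were open for 5 of 6 in the series-level list, with Ly6g the only one that was not. In both replicates 3 of these 6 were open. Monocyte markers were open for 4 of 4 in the series-level list, Ly6c2 among them, and for 3 of 4 in both replicates. Whether cells of other types had a part in the regions of the cluster was not tested.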

How the data were processed

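ATAC-seq of 2 GMP replicates was analysed from deposited region lists in mm10. Per the submitters' file list, there are lists for each replicate and lists made from both replicates' reads. The sources used here do not give the aligner, peak caller, versions, Tn5 shift, read length or treatment of reads with several placements. A deposited row has a fold enrichment (a ratio), a p and q value as −log10, a score from 0 to 1000 and a summit offset, a position given by the authors in bp. Only position, fold, score and IDR were used, the last from the ranked list in which the authors compared the replicates; 8 unnamed per-replicate columns there were not used. Depth is unknown.

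Results rest on the series-level conservative list. Rows sharing 1 bp or more were merged, keeping the summit and fold of the highest row. Start sites came from GENCODE vM21, with all transcripts counted, and promoters were 1000 bp to either side. A word was unique where it occurred once, on both strands, in the GRCm38.p6 chromosomes. Sequences were read from that assembly, and promoter shares from its RefSeq promoter table, which held 3 of the 9 members. Alignments used Biopython 1.88, and the rest Python 3.11.15 with numpy 2.4.6. Overlap, annotation and word counting were tested on simulated data.

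All members were described. Other protein-coding genes of the window were named where open, and regions where they lay at or nearest to a member promoter or among the 10 highest folds. Further regions near the members, and the copies of the Ly6c2 promoter, were named after their values were seen. Some genes of the marker and pathway lists are not reported here. Members, lists and words were chosen with earlier results of these data known. Alternatives were other lists, each replicate alone, a fold minimum, other flanks, promoter windows and overlaps.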

Additional observations from a re-analysis of the deposited data

How the results depend on the processing

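No paired analysis was possible because the series holds 1 group and no result comes from a test. The 2 open members, Ly6e and Ly6c2, were the same in the optimal list, with promoter windows of 500 and 2500 bp, at gene 5′ ends only, with any overlap, in each replicate alone and with protein-coding transcripts only, an alternative added after seeing the data. The looser lists changed most values. In the replicated list 5 members were open (also Ly6i, Ly6a and Ly6g), with 68 regions in the window, 3.15% of it covered and a median of 13 regions within 50 kb of a member. In the pseudoreplicated list 5 members were open (Ly6c1 in place of Ly6g), with 66 regions and 3.14% covered. With regions at or above the median fold only, 1 member (Ly6c2) was open, with 16 regions, 1.17% covered and a median of 3 within 50 kb. Each replicate alone gave 26 (replicate 2) to 31 (replicate 1) regions, 1.38% to 1.75% covered and a median of 5 to 7 within 50 kb. Without flanks 1.85% was covered. In the looser lists of the replicates 36 regions were present in both. Words of 36 and 100 bases, also added after seeing the data, gave 75.9% and 91.9% unique in the window. The identity of the proteins was not computed. Depth, which the lists do not give, limits what a missing region means.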
